A study of Mus musculus with 21 samples.

Results

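Actin cytoskeleton genes were described in RNA sequencing data from the mouse line RAW264.7, whose cells resemble macrophages, and from mouse liver. The group holds 43 genes, chosen by symbol from a list of actins and actin-binding proteins, and all 43 are among the 35550 genes with values for the cell line. Of the 5298 genes with values for liver, 13 belong to the group. By role they are the 2 monomer actins Actb and Actg1, the Arp2/3 complex (8 genes), monomer binding and filament turnover (8), capping and severing (5), elongation (2), crosslinking and adhesion (5), the contractile apparatus (7), linkers of filaments to the membrane (5) and the transcription factor Srf.

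RAW264.7 cells were studied at 12 h in 4 groups of 2 libraries: Vim-KO cells with LPS, Vim-KO cells with PBS, WT cells with LPS and WT cells with PBS. At 24 h there were 3 groups of 2 libraries, all from WT cells: LPS plus CTM, LPS alone and PBS. The LPS dose in culture was 1 µg/mL, and that of CTM was 0.5 mM. Liver came from C57BL/6J mice, with 1 library per group: TG2-KO with LPS, TG2-KO with PBS, WT with LPS and depletion of liver macrophages, WT with LPS and no depletion, WT with LPS plus CTM, WT with LPS, and WT with PBS. Injections into the peritoneum used LPS at 30 mg/kg and CTM at 100 mg/kg. Labels of the 2 depletion samples state no dose. LPS is a component of the outer membrane of Gram-negative bacteria that activates macrophages. Vim encodes the intermediate filament protein vimentin, TG2 is transglutaminase 2, and CTM is named as in the labels. How the knockouts were made, whether the Vim-KO cells are 1 clone, the age of the mice, and whether the libraries of a group come from separate cultures or pooled animals are not given in the sources used here, so p-values measure the spread between libraries, which may be technical.

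Levels are given as TPM, an abundance scaled for transcript length and to a common library total, from which the number of reads per library is not known. Changes in the cell line are differences of log2(TPM + 1) ± SE with n = 2 libraries per group. They were tested with limma in 1 model per experiment, and a gene is called higher or lower where its adjusted p over all genes is below 0.05. Because that total is fixed, a rise of some genes lowers the TPM of the rest. With LPS the median change of all genes was -0.23 in Vim-KO cells and -0.35 in WT cells at 12 h, and -0.23 in WT cells at 24 h, and median-of-ratios scaling between libraries brought these medians to 0.0054, 0.0064 and 0.0063. Counts of higher and lower genes are therefore given as deposited and after that scaling.

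Globular actin (G-actin) assembles into filaments that push membranes forward, bear tension and anchor adhesions, and macrophages rely on them for spreading, phagocytosis and migration. The Arp2/3 complex starts branches, profilin feeds monomers to growing ends, cofilin with its helpers takes old filaments apart, and thymosins hold monomers in reserve. Srf, the serum response factor, is bound by a cofactor that free G-actin keeps inactive, and it switches on many actin genes through the CArG box.

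The labels were checked first. All 9 macrophage markers, Csf1r and Cd68 among them, were above 1 TPM in each of the 14 libraries, and the 8 lymphocyte markers together reached at most 0.403 TPM. Vim was at 30.8 and 33.0 TPM in Vim-KO LPS libraries, against 1375 and 1461 TPM in WT LPS libraries, and at 17.0 and 18.7 TPM in Vim-KO PBS libraries, against 1930.1 and 1877 TPM in WT PBS libraries. The 2 libraries of a group correlated at 0.986 to 0.990 on the log2 scale. Among the actin genes the median difference between the 2 libraries of a group was largest for Vim-KO LPS, at 0.148 on the log2 scale, against 0.0989 for WT LPS, 0.0598 for Vim-KO PBS and 0.0280 for WT PBS.

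A search on either strand for the CArG box, which is CC, then 6 bases that are A or T, then GG, found it in 4 of 40 actin genes with a promoter in the RefSeq table (GRCm38.p6, 250 bases before to 50 after the start). That is 10%, and 11 of 100 further actin-related genes (11%) held one, against 1.81% of all 27025 promoters of this length and 1.49% of the 8415 matched genes tested at 12 h. The further genes were drawn from lists that include 19 Srf cofactors and textbook Srf targets, so their share may be partly set by that choice. Matching was by symbol, and Actb, Diaph1 and Marcks had no entry. The 4 windows show 150 bases each, 5′ to 3′ on the strand of the gene, with the boxes in capitals. Those of Actg1, Srf and Myl6 end just before the start, and that of Arpc4 lies further upstream and begins 250 bases before it. They are shown because Srf and its targets are members of one circuit. A match is a description of the letters and not a measured binding site.
Actg1 chr11:120348496-120348645 (- strand): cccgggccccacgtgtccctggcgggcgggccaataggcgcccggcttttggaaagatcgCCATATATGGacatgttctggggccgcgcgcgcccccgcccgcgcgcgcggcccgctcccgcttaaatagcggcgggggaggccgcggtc
Srf chr17:46556163-46556312 (- strand): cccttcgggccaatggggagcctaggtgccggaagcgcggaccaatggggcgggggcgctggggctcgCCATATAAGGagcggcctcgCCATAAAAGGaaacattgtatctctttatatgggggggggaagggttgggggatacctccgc
Myl6 chr10:128493010-128493159 (- strand): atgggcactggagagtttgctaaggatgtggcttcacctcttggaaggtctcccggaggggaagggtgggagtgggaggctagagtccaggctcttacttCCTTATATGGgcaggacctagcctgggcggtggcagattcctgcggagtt
Arpc4 chr6:113377863-113378012 (+ strand): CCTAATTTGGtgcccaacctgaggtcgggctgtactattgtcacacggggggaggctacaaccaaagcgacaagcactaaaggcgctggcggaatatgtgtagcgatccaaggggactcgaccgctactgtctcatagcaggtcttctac
The box begins 90 bases before the start of Actg1, 82 and 62 bases before that of Srf, 50 bases before that of Myl6 and 250 bases before that of Arpc4. These 4 genes moved unequally with LPS at 12 h. The change of Actg1 was 1.73 in Vim-KO and 2.69 in WT cells on the log2 scale, that of Srf 0.048 in Vim-KO and 0.34 in WT cells, that of Myl6 0.34 in Vim-KO and 0.57 in WT cells, and that of Arpc4 -0.079 in Vim-KO and -0.14 in WT cells. Of these the changes of Srf in Vim-KO cells and of Arpc4 in both genotypes did not pass the test.

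LPS at 12 h asks what activation does to the actin genes, and the genotype whether that differs between Vim-KO and WT cells. Loss of vimentin and other differences between the Vim-KO and WT lines cannot be told apart here. Both monomer actins, the adhesion protein gene Zyx and the membrane linker gene Marcksl1 rose in both genotypes, while Gsn, Ezr and Rdx fell. In Vim-KO cells 29 of 43 genes passed, 21 higher and 8 lower, where 66.4% of all 11115 genes passed, 20.5% higher and 45.8% lower. In WT cells 34 passed, 27 higher and 7 lower, against 70.9% of all genes, 17.8% higher and 53.1% lower. After scaling 33 were higher and 4 lower in Vim-KO cells (32.4% and 31.9% of all genes, 64.3% in either direction), and 37 higher and 3 lower in WT cells (33.4% and 31.8%, 65.2% in either direction). The median change of the group was 0.17 in Vim-KO cells and 0.39 in WT cells, against -0.23 and -0.35 over all genes. Together the 43 genes made up 39050 and 35365 TPM in Vim-KO LPS libraries, against 25764 and 27031 TPM in Vim-KO PBS libraries, and 37888 and 40357 TPM in WT LPS libraries, against 23287 and 22996 TPM in WT PBS libraries. The difference between genotypes in the LPS change, tested as an interaction, passed for 12 genes: 1 had a higher and 11 a lower change in Vim-KO cells, where 20.6% of all genes passed, 13.7% higher and 6.96% lower (scaled: 1 and 16 genes, against 9.84% and 11.5%, 21.3% in either direction).

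**Figure D1:**
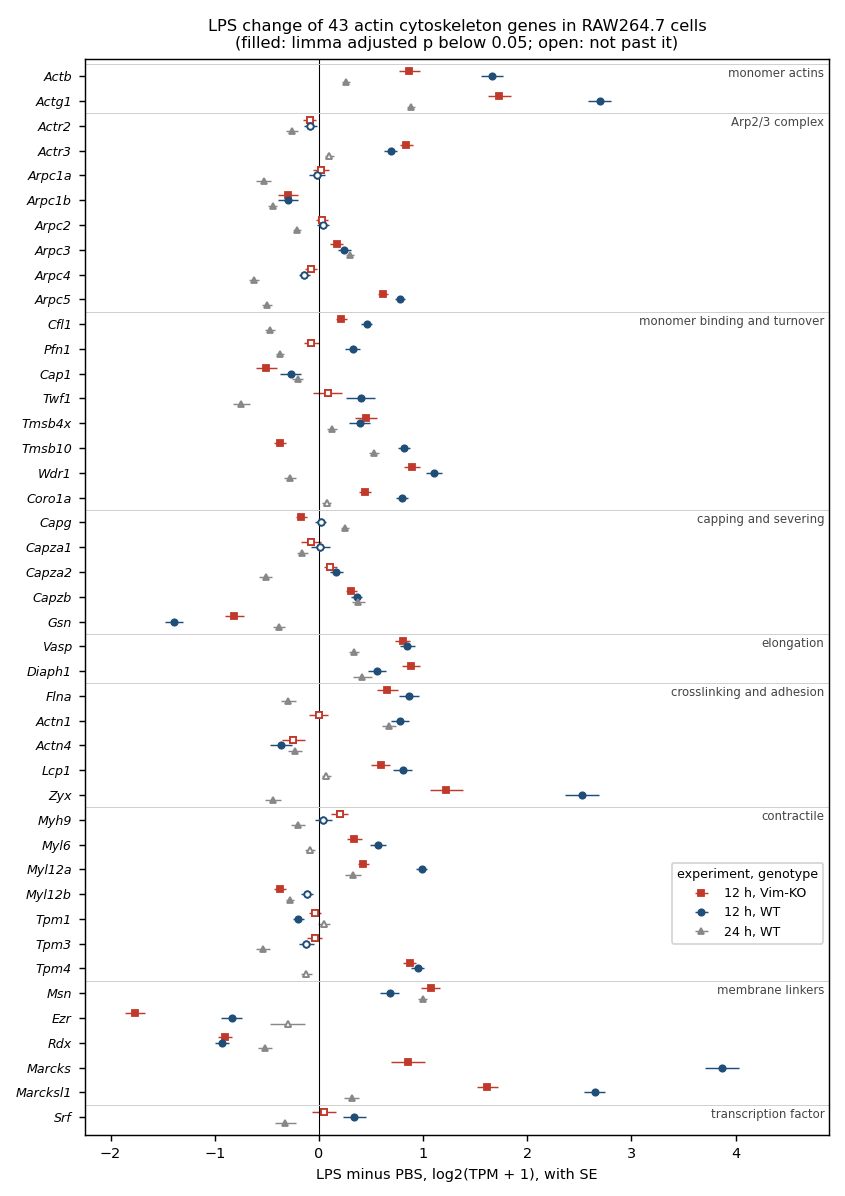
LPS minus PBS on the log2(TPM + 1) scale, with SE, for the 43 genes in order of role: 12 h Vim-KO cells (red squares), 12 h WT cells (blue circles) and 24 h WT cells (grey triangles), filled where the limma adjusted p is below 0.05. Actb and Actg1 lie to the right of 0 in all 3 series, Zyx at 1.22 and 2.53 at 12 h but at -0.44 at 24 h, and Marcks has no 24 h point. Values are as deposited, and scaling shifts each series to the right.

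The monomer actins carried most of the added abundance. Actb, the beta-actin gene, had 10545 and 9337 TPM in Vim-KO LPS libraries, against 5011 and 5907 TPM in Vim-KO PBS libraries, a change of 0.87 ± 0.10, adjusted p = 1.47e-04. It had 9039.8 and 10152 TPM in WT LPS libraries, against 3117 and 2950.0 TPM in WT PBS libraries, a change of 1.66 ± 0.10, adjusted p = 3.56e-06. Actg1, which encodes gamma-actin, had 5802 and 4714 TPM in Vim-KO LPS libraries, against 1465 and 1689 TPM in Vim-KO PBS libraries (1.73 ± 0.11, adjusted p = 4.82e-06). WT values of Actg1 were 4728 and 5265 TPM in WT LPS libraries, against 791 and 751 TPM in WT PBS libraries (2.69 ± 0.11, adjusted p = 4.53e-07). The LPS change was smaller in Vim-KO cells for Actb (difference -0.79 ± 0.15, adjusted p = 0.00862) and Actg1 (difference -0.96 ± 0.16, adjusted p = 0.0055), and that of Actb did not pass with no filter on low values (adjusted p = 0.0554). The PBS libraries were where the genotypes differed. With LPS the 2 genotypes overlapped for both genes, while with PBS both were higher in Vim-KO cells, Actb by 0.84 ± 0.10, adjusted p = 4.29e-04 and Actg1 by 1.03 ± 0.11, adjusted p = 2.43e-04. Together they held 39.7% to 41.9% of the group's TPM in Vim-KO LPS libraries, against 25.1% to 28.1% in Vim-KO PBS libraries, and 36.3% to 38.2% in WT LPS libraries, against 16.1% to 16.8% in WT PBS libraries. Annotated transcripts of Actg1 share 40.2% of their 31-base words with other genes, mainly the copy Gm12715, which had at most 3.23 TPM in any of the 8 libraries, and 3.77% with Actb. For Actb the shared part is 23.5%, and its main partner is Lrrc58.

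**Figure D2:**
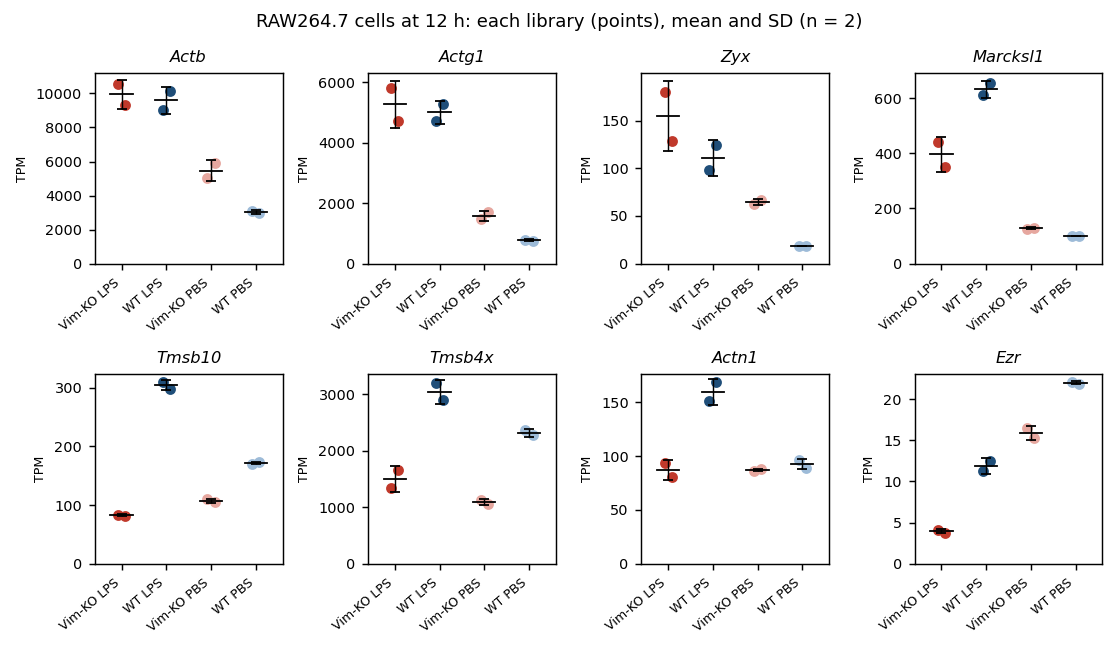
TPM of 8 genes in each 12 h library (points), with mean and SD (n = 2), for Vim-KO LPS, WT LPS, Vim-KO PBS and WT PBS. Actb, Actg1 and Zyx are higher in Vim-KO than in WT libraries with PBS, Tmsb4x and Tmsb10 are lower in Vim-KO than in WT libraries with either treatment, and Actn1 stands apart in the WT LPS libraries, at 151 and 168 TPM.

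Genes of the Arp2/3 complex split. Of its 8 genes 3 rose, 1 fell and 4 did not pass in either genotype, and after scaling 7 were higher and 1 did not pass. Over all genes 20.5% rose and 45.8% fell in Vim-KO cells, and 17.8% rose and 53.1% fell in WT cells. After scaling these shares were 32.4% and 31.9% in Vim-KO cells and 33.4% and 31.8% in WT cells. No role, here or below, was tested against the shares of all genes. The nucleating subunit gene Actr3 had 591 and 553 TPM in Vim-KO LPS libraries, against 312 and 327 TPM in Vim-KO PBS libraries (0.84 ± 0.062, adjusted p = 9.86e-06), and 555 and 594 TPM in WT LPS libraries, against 354 and 357 TPM in WT PBS libraries (0.69 ± 0.062, adjusted p = 2.82e-05). Arpc5 had 335 and 335 TPM in Vim-KO LPS libraries, against 218 and 219 TPM in Vim-KO PBS libraries (0.61 ± 0.050, adjusted p = 1.68e-05). Its WT values were 442 and 429.8 TPM in WT LPS libraries, against 253 and 254 TPM in WT PBS libraries (0.78 ± 0.050, adjusted p = 4.27e-06). Actr3 shares 34.2% of its 31-base words with other genes, mainly Gm8822, which had at most 0.199 TPM at 12 h. Arpc3 also rose, by 0.17 in Vim-KO and 0.24 in WT cells. Arpc1b fell by 0.30 in both genotypes as deposited, but after scaling its change was -0.036 in Vim-KO and 0.090 in WT cells and no longer passed. Actr2, Arpc1a, Arpc2 and Arpc4 lay between -0.087 and 0.026 in Vim-KO cells and between -0.14 and 0.038 in WT cells. No interaction passed in the complex as deposited, and after scaling Arpc5 did (-0.29, adjusted p = 0.0316). Arpc3 and Arpc5 were lower in Vim-KO than in WT cells with either treatment. For Arpc5 the difference was -0.38 ± 0.050, adjusted p = 6.44e-04 with LPS and -0.21 ± 0.050, adjusted p = 0.0106 with PBS.

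Among the 8 genes of monomer binding and turnover, 4 rose and 2 fell with LPS in Vim-KO cells and 7 rose and 1 fell in WT cells (scaled: 6 and 1 in Vim-KO cells, 7 and 0 in WT cells). Over all genes 66.4% passed in Vim-KO and 70.9% in WT cells. Wdr1, the cofilin cofactor that disassembles filaments, had 331 and 297 TPM in Vim-KO LPS libraries, against 162 and 176 TPM in Vim-KO PBS libraries (0.89 ± 0.075, adjusted p = 1.93e-05). In WT cells it had 301 and 321 TPM in WT LPS libraries, against 143 and 145 TPM in WT PBS libraries (1.10 ± 0.075, adjusted p = 5.59e-06). Cfl1, the main cofilin of these cells, had 2059 and 2017 TPM in Vim-KO LPS libraries, against 1745 and 1772 TPM in Vim-KO PBS libraries (0.21 ± 0.054, adjusted p = 0.00844), a call lost without the first Vim-KO PBS library (adjusted p = 0.0576). Its WT levels were 1899.9 and 1993 TPM in WT LPS libraries, against 1409.7 and 1423 TPM in WT PBS libraries (0.46 ± 0.054, adjusted p = 1.23e-04). Coro1a, a leukocyte coronin that works with cofilin, rose by 0.44 in Vim-KO and by 0.80 in WT cells, and the difference of -0.35 ± 0.080, adjusted p = 0.0193 passed. Cap1, which recycles monomers from cofilin, had 868 and 711 TPM in Vim-KO LPS libraries, against 1077 and 1156 TPM in Vim-KO PBS libraries (-0.51 ± 0.099, adjusted p = 0.00227), while its decrease in WT cells (-0.27) turned to 0.11 after scaling and did not pass there. Twf1, a monomer-sequestering twinfilin, rose in WT cells by 0.40 ± 0.14, adjusted p = 0.0314, and stood at 43.9 and 31.3 TPM in Vim-KO LPS libraries, against 33.5 and 36.3 TPM in Vim-KO PBS libraries, which overlapped (0.086 ± 0.14, adjusted p = 0.606; after scaling 0.34, adjusted p = 0.0482). After scaling the LPS change was also smaller in Vim-KO cells for Cfl1 (-0.37, adjusted p = 0.0149) and Wdr1 (-0.34, adjusted p = 0.0458).

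Pfn1, the profilin gene, had 2473 and 2249 TPM in Vim-KO LPS libraries, against 2476 and 2493 TPM in Vim-KO PBS libraries (-0.075 ± 0.071, adjusted p = 0.378, not past the threshold; after scaling 0.19, adjusted p = 0.034). In WT cells it had 2081 and 2289 TPM in WT LPS libraries, against 1756 and 1735 TPM in WT PBS libraries (0.32 ± 0.071, adjusted p = 0.00385). The difference between the genotypes was -0.40 ± 0.10, adjusted p = 0.0283, a call lost in 5 of the 8 fits that left out 1 library, with a replicate block (adjusted p = 0.0584) and with no filter (adjusted p = 0.0834). With PBS Pfn1 was higher in Vim-KO cells by 0.51 ± 0.071, adjusted p = 8.13e-04.

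The 2 thymosins, which bind G-actin, parted. Tmsb10 had 83.8 and 81.9 TPM in Vim-KO LPS libraries, against 109.9 and 105 TPM in Vim-KO PBS libraries (-0.37 ± 0.057, adjusted p = 5.74e-04), a fall that did not pass after scaling (-0.11, adjusted p = 0.104). In WT cells Tmsb10 had 310.2 and 298 TPM in WT LPS libraries, against 171 and 174 TPM in WT PBS libraries (0.82 ± 0.057, adjusted p = 6.35e-06). It was the single gene of the group called lower in Vim-KO and higher in WT cells, a pattern of 65 among all 11115 genes. Its LPS change differed between genotypes by -1.19 ± 0.080, adjusted p = 7.55e-05. Tmsb4x, the most abundant thymosin gene here, had 1340.0 and 1659 TPM in Vim-KO LPS libraries, against 1124 and 1055 TPM in Vim-KO PBS libraries (0.45 ± 0.10, adjusted p = 0.00502). Its WT levels were 3192 and 2895 TPM in WT LPS libraries, against 2369.5 and 2271 TPM in WT PBS libraries (0.39 ± 0.10, adjusted p = 0.00961). The WT call of Tmsb4x was lost without the second WT PBS or the first WT LPS library (adjusted p = 0.0567 and 0.0632). The LPS change of Tmsb4x did not pass a difference between genotypes (0.063 ± 0.15, adjusted p = 0.804), but its level was lower in Vim-KO cells with LPS (-1.03 ± 0.10, adjusted p = 1.55e-04) and with PBS (-1.09 ± 0.10, adjusted p = 1.06e-04). Tmsb10 was lower in Vim-KO cells as well, with LPS (-1.86 ± 0.057, adjusted p = 4.15e-07) and with PBS (-0.68 ± 0.057, adjusted p = 5.50e-05). In the annotation 32.0% of the 31-base words of Tmsb10 also occur in other genes, mainly Gm9844, which had at most 0.339 TPM at 12 h.

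Of the 5 capping and severing genes 1 rose and 2 fell in Vim-KO cells and 2 rose and 1 fell in WT cells (scaled: 2 and 1 in Vim-KO, 4 and 1 in WT cells). Over all genes 66.4% passed in Vim-KO and 70.9% in WT cells, so these counts do not stand out. Gsn, the calcium-dependent severing protein gelsolin, had 122 and 104 TPM in Vim-KO LPS libraries, against 194 and 204 TPM in Vim-KO PBS libraries (-0.81 ± 0.087, adjusted p = 8.06e-05). In WT cells Gsn had 80.7 and 89.4 TPM in WT LPS libraries, against 224 and 225 TPM in WT PBS libraries (-1.39 ± 0.087, adjusted p = 3.65e-06). It fell less in Vim-KO cells, with a difference of 0.58 ± 0.12, adjusted p = 0.0151, which did not pass in 4 of the 8 fits that left out 1 library. Capzb, the beta subunit of capping protein, rose by 0.31 in Vim-KO and 0.36 in WT cells. Capza2 passed in WT cells with 0.17 ± 0.066, adjusted p = 0.0499, and Capza1 in neither genotype, while Capg, a macrophage capping protein, fell in Vim-KO cells (-0.17 ± 0.053, adjusted p = 0.0211), a change that turned to 0.092 after scaling. Capza1 shares 67.2% of its 31-base words with other genes, mainly Gm3608, which had at most 3.65 TPM at 12 h. Both elongation genes rose in both genotypes. Vasp, which protects growing ends from capping, changed by 0.80 in Vim-KO and 0.85 in WT cells. The formin gene Diaph1 had 87.9 and 78.0 TPM in Vim-KO LPS libraries, against 45.1 and 43.8 TPM in Vim-KO PBS libraries (0.88 ± 0.086, adjusted p = 4.51e-05), and changed by 0.56 ± 0.086, adjusted p = 5.59e-04, in WT cells.

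Crosslinking and adhesion held one of the steepest increases. Zyx, which encodes zyxin of focal adhesions and stressed filaments, had 181 and 129 TPM in Vim-KO LPS libraries, against 62.6 and 67.1 TPM in Vim-KO PBS libraries (1.22 ± 0.16, adjusted p = 2.60e-04). In WT cells it had 98.01 and 125 TPM in WT LPS libraries, against 18.3 and 18.4 TPM in WT PBS libraries (2.53 ± 0.16, adjusted p = 4.09e-06). Its LPS change was smaller in Vim-KO cells (-1.30 ± 0.23, adjusted p = 0.00681), and with PBS its level was 62.6 and 67.1 TPM in Vim-KO libraries, against 18.3 and 18.4 TPM in WT libraries (1.77 ± 0.16, adjusted p = 8.85e-05). In the separate 24 h experiment WT PBS libraries had 126 and 129 TPM of Zyx, above the Vim-KO PBS level at 12 h. Actn1, an alpha-actinin that crosslinks filaments, had 93.9 and 80.9 TPM in Vim-KO LPS libraries, against 86.6 and 88.0 TPM in Vim-KO PBS libraries (-0.0029 ± 0.090, adjusted p = 0.981), and those groups overlapped. After scaling its change in Vim-KO cells was 0.26 (adjusted p = 0.0204). WT levels of Actn1 were 151 and 168 TPM in WT LPS libraries, against 96.0 and 89.3 TPM in WT PBS libraries (0.78 ± 0.090, adjusted p = 1.10e-04). The difference was -0.78 ± 0.13, adjusted p = 0.00484, and with LPS Actn1 was lower in Vim-KO than in WT cells (-0.86 ± 0.090, adjusted p = 1.82e-04). Flna, a filamin, and Lcp1, the leukocyte plastin, rose in both genotypes, Flna by 0.66 in Vim-KO and 0.87 in WT cells and Lcp1 by 0.59 in Vim-KO and 0.80 in WT cells. Actn4 did not pass in Vim-KO cells (-0.25) and fell by 0.37 ± 0.11, adjusted p = 0.0154, in WT cells, which turned to 0.019 after scaling.

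In the contractile apparatus 3 of 7 genes rose and 1 fell in each genotype (scaled: 6 and 0 in Vim-KO, 7 and 0 in WT cells). As deposited, 66.4% of all genes passed in Vim-KO and 70.9% in WT cells. Tpm4, a tropomyosin that stabilises filaments, had 479 and 444 TPM in Vim-KO LPS libraries, against 250.3 and 253 TPM in Vim-KO PBS libraries (0.87 ± 0.061, adjusted p = 6.95e-06). Its WT levels were 449 and 472 TPM in WT LPS libraries, against 244 and 233 TPM in WT PBS libraries (0.95 ± 0.061, adjusted p = 4.23e-06). The regulatory light chain gene Myl12a had 223 and 230.1 TPM in Vim-KO LPS libraries, against 167 and 169.6 TPM in Vim-KO PBS libraries (0.43 ± 0.053, adjusted p = 1.82e-04). In WT cells it had 250.1 and 257 TPM in WT LPS libraries, against 127 and 128 TPM in WT PBS libraries (0.98 ± 0.053, adjusted p = 1.59e-06), and the difference of -0.56 ± 0.075, adjusted p = 0.00185 passed. Its close relative Myl12b fell by 0.37 in Vim-KO cells, which did not pass after scaling (-0.11), and did not pass in WT cells (-0.11). The 2 light chain genes share 17.4% and 19.3% of their 31-base words, so reads could be divided between them. Myl6, the essential light chain, rose by 0.34 in Vim-KO and 0.57 in WT cells. The heavy chain gene Myh9 of nonmuscle myosin and Tpm3 did not pass in either genotype as deposited, and both were higher in both after scaling. Tpm4 shares 16.0% of its 31-base words with other genes, mainly Gm7809. Tpm1 fell in WT cells (-0.20 ± 0.055, adjusted p = 0.0117), but was higher after scaling (0.19, adjusted p = 0.0186).

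Membrane linkers moved both ways, 3 higher and 2 lower in each genotype, also after scaling. As deposited, 66.4% of all genes passed in Vim-KO and 70.9% in WT cells. Marcksl1, a MARCKS-like protein that ties actin to acidic lipids, had 442 and 352 TPM in Vim-KO LPS libraries, against 126 and 131 TPM in Vim-KO PBS libraries (1.61 ± 0.10, adjusted p = 3.73e-06). In WT cells Marcksl1 had 611 and 654 TPM in WT LPS libraries, against 99.1 and 101 TPM in WT PBS libraries (2.65 ± 0.10, adjusted p = 2.75e-07), and the difference was -1.03 ± 0.14, adjusted p = 0.00218. Its relative Marcks was at 0.928 and 0.695 TPM in Vim-KO LPS libraries and listed at 0 in both Vim-KO PBS libraries. WT levels of Marcks were 14.4 and 16.9 TPM in WT LPS libraries, against 0.0795 and 0.191 TPM in WT PBS libraries (3.87 ± 0.16, adjusted p = 4.42e-07). All 4 PBS libraries lay below 0.2 TPM, so the fitted changes of Marcks depend on the added constant of 1. Among the 3 ERM proteins, which link filaments to membrane proteins, Msn rose and the other two fell. Msn (moesin) had 643 and 539.8 TPM in Vim-KO LPS libraries, against 279 and 280.2 TPM in Vim-KO PBS libraries (1.07 ± 0.093, adjusted p = 2.28e-05). Its change in WT cells was 0.68 ± 0.093, adjusted p = 2.85e-04. Ezr (ezrin) had 4.12 and 3.79 TPM in Vim-KO LPS libraries, against 16.5 and 15.2 TPM in Vim-KO PBS libraries (-1.77 ± 0.099, adjusted p = 1.99e-06). WT values of Ezr were 11.2 and 12.5 TPM in WT LPS libraries, against 22.1 and 21.9 TPM in WT PBS libraries (-0.84 ± 0.099, adjusted p = 1.23e-04), so that it fell further in Vim-KO cells (-0.93 ± 0.14, adjusted p = 0.00332). Rdx (radixin) had 52.7 and 47.8 TPM in Vim-KO LPS libraries, against 96.8 and 92.2 TPM in Vim-KO PBS libraries (-0.90 ± 0.070, adjusted p = 1.25e-05), and 53.3 and 53.3 TPM in WT LPS libraries, against 105 and 101 TPM in WT PBS libraries (-0.93 ± 0.070, adjusted p = 9.64e-06), with no difference past the threshold (0.032 ± 0.099, adjusted p = 0.855).

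Srf itself had 85.3 and 70.4 TPM in Vim-KO LPS libraries, against 70.9 and 79.2 TPM in Vim-KO PBS libraries (0.048 ± 0.11, adjusted p = 0.724, not past the threshold). In WT cells Srf had 54.9 and 62.9 TPM in WT LPS libraries, against 45.1 and 47.5 TPM in WT PBS libraries (0.34 ± 0.11, adjusted p = 0.0256), a call lost in 3 of the 8 fits that left out 1 library. After scaling the changes were 0.31 in Vim-KO cells (adjusted p = 0.0306) and 0.72 in WT cells (adjusted p = 4.91e-04). The difference did not pass (-0.29 ± 0.16, adjusted p = 0.235). With PBS Srf was higher in Vim-KO cells by 0.68 ± 0.11, adjusted p = 0.00185, and with LPS by 0.39 ± 0.11, adjusted p = 0.0224. The call with LPS was lost in 2 of the 8 fits that left out 1 library, without the first WT LPS or the first Vim-KO LPS library, and with no filter on low values (adjusted p = 0.0575). The call for LPS in WT cells was also lost with no filter (adjusted p = 0.0605).

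**Figure D3:**
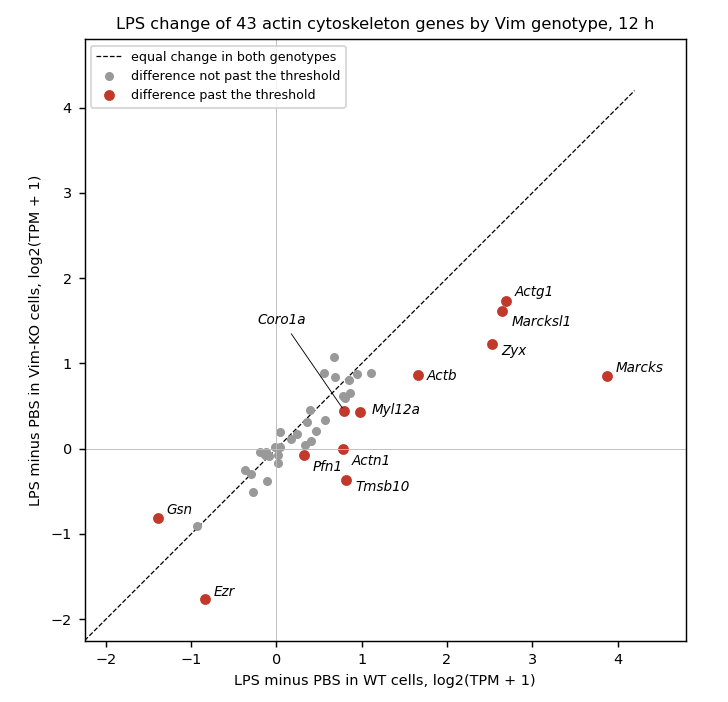
LPS minus PBS on the log2(TPM + 1) scale in Vim-KO cells (vertical axis) against WT cells (horizontal axis) at 12 h, 1 point per gene, with the 12 genes whose difference passed in red and a dashed line of equal change. Of those 12, 11 lie below the line and Gsn, which fell in both genotypes, lies above it.

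Of the 27 genes called higher with LPS in WT cells, 23 had a smaller change in Vim-KO cells, where 1147 of the 1983 genes called higher among all genes did. The genes were picked by their WT change, which by itself favours a smaller change in the other genotype. Neutrophil-type markers moved with the same contrast. Of that list of 8 markers, 1 was at or above 1 TPM in Vim-KO LPS libraries and 3 in WT LPS libraries, and their summed level was 13.8 to 14.7 TPM in Vim-KO LPS libraries, against 896 to 912 TPM in WT LPS libraries. Nearly all of it was S100a8, at 13.1 and 12.9 TPM in Vim-KO LPS libraries, against 908 and 892 TPM in WT LPS libraries. With PBS the list summed to 5.05 to 5.39 TPM in Vim-KO libraries, against 8.19 to 8.97 TPM in WT libraries, and S100a9 was at 0 in all 4 of these. Among the macrophage markers Adgre1 had 28.7 and 24.7 TPM in Vim-KO PBS libraries, against 91.3 and 89.3 TPM in WT PBS libraries, and 183 and 129.9 TPM in Vim-KO LPS libraries, against 212 and 241 TPM in WT LPS libraries. Csf1r went the other way with LPS, at 716 and 605 TPM in Vim-KO libraries, against 315 and 340 TPM in WT libraries. Cd68 and Ptprc overlapped between genotypes with LPS. The whole list of 9 summed to 9269 and 9262 TPM in Vim-KO PBS libraries, against 17966 and 17842 TPM in WT PBS libraries. With LPS it summed to 12522 and 11728 TPM in Vim-KO libraries, against 14269 and 15143 TPM in WT libraries. Lyz2 was its largest part in every library. The part of these genes in the actin gene result was not tested.

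Directly between genotypes, with PBS 22 of 43 genes passed, 12 higher and 10 lower in Vim-KO cells, where 43% of all genes passed, 17.7% higher and 25.4% lower. After scaling 15 were higher and 8 lower (21.2% and 23% of all genes, 44.2% in either direction). The count was 12 when the first WT PBS or the second Vim-KO PBS library was left out. Zyx, Actg1, Actb, Srf and Pfn1 were at least 0.5 higher on the log2 scale, with the values given above, and Tmsb4x and Tmsb10 were at least 0.5 lower. Cfl1 was higher by 0.31 ± 0.054, adjusted p = 0.00245. Smaller increases were called for Cap1, Wdr1, Coro1a, Vasp, Myl12a and Marcksl1, between 0.22 and 0.40. Smaller decreases were called for Arpc3, Arpc5, Capg, Capza2, Diaph1, Tpm1, Msn and Ezr, between -0.45 and -0.18, and after scaling Arpc3 and Capg did not pass.

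With LPS 18 genes passed between genotypes, 4 higher and 14 lower in Vim-KO cells, where 44.7% of all genes passed, 24.1% higher and 20.6% lower. After scaling 2 were higher and 16 lower (20.5% and 25.6% of all genes, 46.1% in either direction). Marcks, Tmsb10, Ezr, Tmsb4x, Actn1 and Marcksl1 were at least 0.5 lower in Vim-KO cells. Marcks stood at 0.928 and 0.695 TPM in Vim-KO LPS libraries, against 14.4 and 16.9 TPM in WT LPS libraries (-3.20 ± 0.16, adjusted p = 4.76e-06). Ezr was lower (-1.38 ± 0.099, adjusted p = 2.82e-05), and Marcksl1 (-0.68 ± 0.10, adjusted p = 0.00115). Actb (0.051 ± 0.10, adjusted p = 0.724), Actg1 (0.068 ± 0.11, adjusted p = 0.661), Cfl1 (0.067 ± 0.054, adjusted p = 0.35) and Pfn1 (0.11 ± 0.071, adjusted p = 0.236) did not pass. Srf, Gsn, Vasp and Zyx were the 4 higher genes, from 0.23 for Vasp to 0.46 for Zyx, and after scaling Vasp and Zyx did not pass. Smaller decreases, between -0.38 and -0.16, were called for Arpc5, Arpc3, Capg, Capza2, Myl12a, Myl12b, Myl6 and Tpm1, and all of them passed after scaling.

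Other genes of actin regulation, 129 in all of which 87 were tested at 12 h, gave 31 higher and 28 lower with LPS in Vim-KO cells and 26 higher and 34 lower in WT cells (scaled: 44 and 23 in Vim-KO, 46 and 18 in WT cells). That is 67.8% called in Vim-KO and 69% in WT cells, close to the 66.4% and 70.9% of all genes, with 35.6% and 29.9% higher, where 20.5% and 17.8% of all genes were higher. The GTPase gene Rhoc had 783 and 741 TPM in Vim-KO LPS libraries, against 117 and 128 TPM in Vim-KO PBS libraries (2.63 ± 0.074, adjusted p = 6.39e-08), and 743 and 761 TPM in WT LPS libraries, against 189 and 170.0 TPM in WT PBS libraries (2.06 ± 0.074, adjusted p = 1.97e-07). The myosin gene Myo1f had 6.600 and 4.73 TPM in Vim-KO LPS libraries, against 49.8 and 43.2 TPM in Vim-KO PBS libraries (-2.84 ± 0.14, adjusted p = 9.86e-07), and 20.3 and 22.7 TPM in WT LPS libraries, against 152 and 156 TPM in WT PBS libraries (-2.78 ± 0.14, adjusted p = 1.07e-06). The formin gene Fhod1 fell by 2.27 ± 0.087, adjusted p = 2.82e-07, in Vim-KO and fell by 2.39 ± 0.087, adjusted p = 2.20e-07, in WT cells. Filip1l rose by 2.14 ± 0.12, adjusted p = 2.17e-06, in Vim-KO and by 1.39 ± 0.12, adjusted p = 2.31e-05, in WT cells. Abi3 of the WAVE complex fell by 1.29 ± 0.14, adjusted p = 7.66e-05, in Vim-KO and fell by 2.17 ± 0.14, adjusted p = 3.98e-06, in WT cells. The interaction passed for 25 of these genes, 17 with a higher and 8 with a lower change in Vim-KO cells (scaled: 11 and 10), or 19.5% and 9.2% of the list, where 13.7% and 6.96% of all genes passed. Among them Swap70, which binds filaments, differed by 1.01 ± 0.096, adjusted p = 3.30e-04, the kinase gene Pak1 by 0.99 ± 0.20, adjusted p = 0.0111, Myo1d by -1.06 ± 0.16, adjusted p = 0.00294 and Eps8, a capping and bundling protein, by -0.91 ± 0.15, adjusted p = 0.00558.

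Between genotypes 8 of the 87 genes were higher and 43 lower in Vim-KO cells with PBS (scaled: 10 and 39), or 9.2% and 49.4%, where 17.7% of all genes were higher and 25.4% lower. With LPS 14 were higher and 29 lower (scaled: 12 and 39), or 16.1% and 33.3%, where 24.1% of all genes were higher and 20.6% lower. Of its 10 tested myosin genes 1 was higher and 9 were lower with PBS, also after scaling. Myo1f had 49.8 and 43.2 TPM in Vim-KO PBS libraries, against 152 and 156 TPM in WT PBS libraries (-1.71 ± 0.14, adjusted p = 4.71e-05), and was lower with LPS (-1.77 ± 0.14, adjusted p = 4.36e-05). Arpin, an inhibitor of the Arp2/3 complex, had 0.611 and 0.410 TPM in Vim-KO LPS libraries, against 6.52 and 7.27 TPM in WT LPS libraries (-2.39 ± 0.13, adjusted p = 5.74e-06). With PBS it had 3.52 and 3.20 TPM in Vim-KO libraries, against 18.3 and 17.7 TPM in WT libraries (-2.12 ± 0.13, adjusted p = 9.33e-06). Myo1d was higher with PBS by 1.32 ± 0.11, adjusted p = 5.40e-05, and Filip1l lower (-1.18 ± 0.12, adjusted p = 1.72e-04). With LPS the myosin gene Myo9a was lower (-1.04 ± 0.17, adjusted p = 0.00167), and the spectrin gene Sptbn1 (-0.94 ± 0.13, adjusted p = 8.95e-04).

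LPS for 24 h was studied in a separate experiment on WT cells, in which Actg1, Msn, Actn1 and Tmsb10 rose and Twf1, Arpc4 and Tpm3 fell. Of the 42 genes tested, since Marcks had a mean under 1 TPM with at most 0.226 TPM in any library, 35 passed, 13 higher and 22 lower, where 66% of all 11030 genes passed, 20.9% higher and 45.1% lower. After scaling the balance turned to 19 higher and 10 lower (31.6% and 30.6% of all genes, 62.2% in either direction). The median change was -0.20, against -0.23 over all genes, and Msn was the gene with the largest change in either direction, at 1.00 on the log2 scale. The summed level of the 43 genes was 24690 and 24483 TPM in LPS libraries, against 24339 and 23969.9 TPM in PBS libraries.

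Actg1 had 2316 and 2418 TPM in LPS libraries, against 1275 and 1283 TPM in PBS libraries (0.89 ± 0.038, adjusted p = 2.23e-06), and Actb had 4354 and 4190.3 TPM in LPS libraries, against 3638 and 3497 TPM in PBS libraries (0.26 ± 0.037, adjusted p = 6.47e-04). Msn had 533 and 514 TPM in LPS libraries, against 264 and 259 TPM in PBS libraries (1.00 ± 0.044, adjusted p = 2.62e-06), Actn1 had 55.8 and 54.2 TPM in LPS libraries, against 34.1 and 34.2 TPM in PBS libraries (0.67 ± 0.067, adjusted p = 1.14e-04), and Tmsb10 had 322 and 335 TPM in LPS libraries, against 229 and 225 TPM in PBS libraries (0.53 ± 0.048, adjusted p = 6.70e-05). Each of these 5 genes was also higher after scaling. Tmsb4x was higher by 0.12 ± 0.046, adjusted p = 0.0436, a call lost in 5 of the 6 fits that left out 1 library and with no filter (adjusted p = 0.118). Smaller increases were called for Arpc3, Capg, Capzb, Vasp, Diaph1, Myl12a and Marcksl1, between 0.25 and 0.42.

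Twf1 had 16.4 and 17.6 TPM in LPS libraries, against 29.2 and 29.2 TPM in PBS libraries (-0.75 ± 0.083, adjusted p = 1.92e-04), Arpc4 had 268 and 273 TPM in LPS libraries, against 426 and 410.3 TPM in PBS libraries (-0.62 ± 0.052, adjusted p = 4.64e-05), and Tpm3 had 544 and 478 TPM in LPS libraries, against 759.6 and 723 TPM in PBS libraries (-0.54 ± 0.066, adjusted p = 3.19e-04). Arpc1a had 42.4 and 39.2 TPM in LPS libraries, against 60.8 and 57.9 TPM in PBS libraries (-0.53 ± 0.076, adjusted p = 6.59e-04). Rdx had 49.95 and 47.8 TPM in LPS libraries, against 71.7 and 69.2 TPM in PBS libraries (-0.52 ± 0.069, adjusted p = 4.58e-04), and Capza2 had 133 and 136 TPM in LPS libraries, against 199 and 185 TPM in PBS libraries (-0.51 ± 0.060, adjusted p = 2.50e-04). These 6 decreases passed after scaling too, from -0.50 for Twf1 to -0.26 for Capza2. Cfl1 had 1253 and 1233 TPM in LPS libraries, against 1776 and 1662 TPM in PBS libraries (-0.47 ± 0.048, adjusted p = 1.29e-04), and Pfn1 had 1605 and 1569 TPM in LPS libraries, against 2086 and 2023 TPM in PBS libraries (-0.37 ± 0.038, adjusted p = 1.30e-04). After scaling Cfl1 was still lower (-0.21, adjusted p = 0.0158) and Pfn1 did not pass (-0.11, adjusted p = 0.0774). Srf had 43.2 and 41.9 TPM in LPS libraries, against 49.4 and 57.9 TPM in PBS libraries (-0.32 ± 0.10, adjusted p = 0.0238), a call lost after scaling, with no filter (adjusted p = 0.0521) and in 3 of the 6 fits that left out 1 library. The other decreases, from -0.50 for Arpc5 to -0.16 for Capza1, were in Arpc5, Arpc1b, Zyx, Gsn, Flna, Wdr1, Myl12b, Actr2, Actn4, Arpc2, Cap1, Myh9 and Capza1, and of these Arpc5, Arpc1b and Zyx passed after scaling. Ezr, Tpm4, Myl6, Tpm1, Lcp1, Coro1a and Actr3 did not pass as deposited, and all but Ezr were higher after scaling. Of the 8 Arp2/3 genes 1 rose and 6 fell (scaled: 2 and 4), where 20.9% of all genes rose and 45.1% fell (scaled: 31.6% and 30.6%). Tpm3 shares 27.0% of its 31-base words with other genes, mainly its copy Tpm3-rs7. That copy had 438 and 422 TPM in LPS libraries, against 649 and 642 TPM in PBS libraries.

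At 12 h and 24 h the calls in WT cells were compared gene by gene, without a test of the difference, since the experiments were normalised separately and share no library. Of 42 genes tested in both, 12 were higher at both times, 5 were lower at both, and 9 were higher at 12 h and lower at 24 h: Arpc5, Cfl1, Pfn1, Twf1, Wdr1, Capza2, Flna, Zyx and Srf. None was lower at 12 h and higher at 24 h. Over the 10797 genes tested in both these counts were 1135, 3680, 278 and 476. After scaling all 9 were still higher at 12 h, and at 24 h Arpc5, Cfl1, Twf1, Capza2 and Zyx were still lower while the other 4 did not pass. Zyx had 101 and 86.9 TPM in LPS libraries, against 126 and 129 TPM in PBS libraries at 24 h (-0.44 ± 0.079, adjusted p = 0.00206). At 12 h it had 98.01 and 125 TPM in WT LPS libraries, against 18.3 and 18.4 TPM in WT PBS libraries. The PBS levels of Zyx thus differed more between the 2 experiments than its LPS levels did.

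Adding CTM to LPS for 24 h tested what the compound changes in activated cells. Of 42 genes 14 passed, 7 higher and 7 lower, where 25.6% of all genes passed, 16.1% higher and 9.45% lower. After scaling 3 were higher and 13 lower (11.5% and 14% of all genes, 25.5% in either direction). The count was 7 without the second LPS plus CTM library. Both monomer actins and both thymosins were lower, and Twf1 was higher. Actg1 had 1536 and 1510.3 TPM in LPS plus CTM libraries, against 2316 and 2418 TPM in LPS libraries (-0.64 ± 0.038, adjusted p = 2.81e-04). Actb had 3539 and 3550.2 TPM in LPS plus CTM libraries, against 4354 and 4190.3 TPM in LPS libraries (-0.27 ± 0.037, adjusted p = 0.00311). Twf1 had 38.4 and 39.8 TPM in LPS plus CTM libraries, against 16.4 and 17.6 TPM in LPS libraries (1.15 ± 0.083, adjusted p = 4.38e-04), the one gene of the group past a 2-fold change here. Tmsb4x had 1881 and 1804 TPM in LPS plus CTM libraries, against 2276 and 2448 TPM in LPS libraries (-0.36 ± 0.046, adjusted p = 0.00246). Actg1, Actb, Twf1 and Tmsb4x each kept direction and call after scaling, as did Tmsb10, which changed by -0.30 ± 0.048, adjusted p = 0.00492.

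Cfl1 was higher with CTM by 0.29 ± 0.048, adjusted p = 0.00632, and Pfn1 by 0.21 ± 0.038, adjusted p = 0.00823, and both calls were lost without the second LPS plus CTM library. Pfn1 did not pass after scaling (0.13, adjusted p = 0.0963). Tpm3 was higher by 0.46 ± 0.066, adjusted p = 0.00369, and its copy Tpm3-rs7 had 563 and 569 TPM in LPS plus CTM libraries, against 438 and 422 TPM in LPS libraries. Arpc1b (0.23), Capza2 (0.21) and Flna (0.27) were also higher as deposited and did not pass after scaling. Coro1a (-0.15), Diaph1 (-0.37) and Marcksl1 (-0.45) were lower. Srf did not pass (0.10 ± 0.10, adjusted p = 0.491), and neither did Msn (-0.14 ± 0.044, adjusted p = 0.058) or Actn1 (0.029 ± 0.067, adjusted p = 0.784). After scaling Msn did pass as lower (-0.22, adjusted p = 0.0137), as did Capzb, Vasp, Lcp1, Arpc3 and Tpm4. Of the 28 genes that did not pass as deposited, 10 had an unadjusted p below 0.05.

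**Figure D4:**
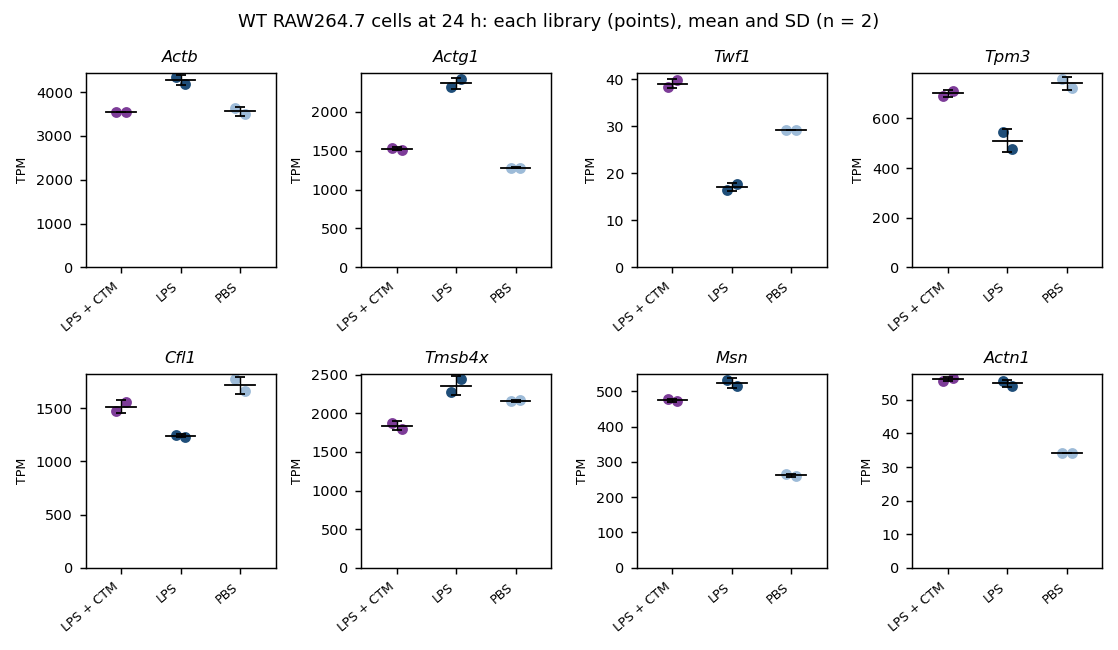
TPM of 8 genes in each 24 h library of WT cells (points), with mean and SD (n = 2), for LPS plus CTM, LPS and PBS. Actb and Actg1 are lower with LPS plus CTM than with LPS, Twf1 at 38.4 and 39.8 TPM lies above both other groups, and Msn and Actn1 are high in both LPS groups.

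Against PBS, LPS plus CTM gave 26 calls, 9 higher and 17 lower, where 52.9% of all genes passed, 17.4% higher and 35.5% lower. After scaling the count was 17 and the balance turned to 14 higher and 3 lower (26.1% and 22.8% of all genes, 48.8% in either direction). Without the first PBS library the count was 15, and without the first LPS plus CTM library 16. This comparison shares the PBS libraries with LPS against PBS, and the LPS plus CTM libraries with LPS plus CTM against LPS. Msn, at 478 and 472 TPM in LPS plus CTM libraries, against 264 and 259 TPM in PBS libraries, was higher by 0.86 ± 0.044, adjusted p = 1.02e-05. Actn1 was higher by 0.70 ± 0.067, adjusted p = 1.87e-04, and Actg1 by 0.25 ± 0.038, adjusted p = 0.00146. Actb was at 3539 and 3550.2 TPM in LPS plus CTM libraries, against 3638 and 3497 TPM in PBS libraries, which overlapped (-0.0088 ± 0.037, adjusted p = 0.858), and was higher after scaling (0.17, adjusted p = 0.0241). Arpc4 was lower (-0.59 ± 0.052, adjusted p = 1.25e-04), and Arpc5 (-0.50 ± 0.047, adjusted p = 1.65e-04), also after scaling. Twf1 was higher by 0.41 ± 0.083, adjusted p = 0.00546, and Capg, Tmsb10, Capzb, Vasp and Arpc3 by 0.18 to 0.31. Gsn was lower (-0.38 ± 0.057, adjusted p = 0.00141), and it was the third gene still lower after scaling. The other decreases, in Rdx, Capza2, Zyx, Arpc1a, Wdr1, Arpc1b, Tpm4, Myl6, Myl12b, Actr2 and Arpc2, lay between -0.32 and -0.15. Cfl1 (-0.18 ± 0.048, adjusted p = 0.0163), Pfn1 (-0.16 ± 0.038, adjusted p = 0.011) and Tmsb4x (-0.23 ± 0.046, adjusted p = 0.00473) were lower, and none passed after scaling. Without the first PBS or the first LPS plus CTM library Cfl1 and Pfn1 did not pass either, nor did Cfl1 with no filter (adjusted p = 0.053). Srf did not pass (-0.22 ± 0.10, adjusted p = 0.101).

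Of the other actin regulation genes, 28 of 87 rose and 30 fell with LPS at 24 h (scaled: 38 and 19), 66.7% in all, close to the 66% of all genes. With LPS plus CTM 12 were higher and 9 lower than with LPS (scaled: 7 and 14), 24.1% in all, close to the 25.6% of all genes. Against PBS, 21 were higher and 28 lower with LPS plus CTM (scaled: 32 and 17), 56.3% in all, where 52.9% of all genes passed. Rhoc had 335 and 323 TPM in LPS plus CTM libraries, 537 and 501 TPM in LPS libraries and 93.8 and 116 TPM in PBS libraries. It was higher with LPS than with PBS by 2.30 ± 0.096, adjusted p = 1.98e-06, and lower with CTM than without it (-0.66 ± 0.096, adjusted p = 0.00387). Coro1c, a broadly expressed coronin, had 96.6 and 97.8 TPM in LPS plus CTM libraries, against 65.6 and 61.7 TPM in LPS libraries (0.60 ± 0.064, adjusted p = 0.00126). Wasl, which activates the Arp2/3 complex, had 8.66 and 9.46 TPM in LPS plus CTM libraries, against 15.2 and 16.6 TPM in LPS libraries (-0.75 ± 0.12, adjusted p = 0.00462). Abi3 was higher with CTM by 0.77 ± 0.13, adjusted p = 0.00586, and lower with LPS than with PBS (-2.20 ± 0.13, adjusted p = 8.67e-06). Fhod1 fell with LPS (-2.07 ± 0.14, adjusted p = 1.80e-05), and the formin gene Fmnl2 rose by 1.70 ± 0.097, adjusted p = 8.20e-06. Against PBS, LPS plus CTM gave -2.02 ± 0.14, adjusted p = 3.97e-05 for Fhod1, 1.56 ± 0.097, adjusted p = 2.37e-05 for Fmnl2, 1.65 ± 0.096, adjusted p = 1.80e-05 for Rhoc and -1.81 ± 0.11, adjusted p = 2.05e-05 for the leukocyte gene Lsp1.

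In liver 13 of the 43 genes have values, because each gene in the deposited table differs 2-fold or more between the WT library with LPS and that with PBS. The size of that contrast is therefore set by the listing, and is described without a test. With 1 library per group nothing could be tested in liver, differences have no replicate check, and the 3 extraction dates follow genotype and depletion. The 13 were higher with LPS than with PBS for Actb, Actg1, Tmsb10, Tpm3, Tpm4, Msn, Ezr, Marcks and Marcksl1, and lower for Diaph1, Actn4, Tpm1 and Rdx. On the log2(TPM + 1) scale 12 of the 13 differed at least 2-fold, as did 66.9% of the 5298 genes. In whole tissue fewer cells of a type and less RNA per cell cannot be told apart. The 5 neutrophil markers with values summed to 71.6 TPM in the WT LPS liver, against 1.73 TPM in the WT PBS liver. The macrophage list, with 6 of 9 markers listed, summed to 391 TPM in the WT LPS liver, against 45.8 TPM in the WT PBS liver. Of the sum with LPS 1 gene made up 375 TPM. Csf1r (2.02 TPM, against 11.8 TPM), Lyz2 (9.78 TPM, against 27.2 TPM) and Adgre1 (1.57 TPM, against 3.53 TPM) were lower with LPS. Ptprc was higher (1.52 TPM, against 0.65 TPM). Lower with LPS were the endothelial list, at 33.2 TPM in the WT LPS liver, against 85.2 TPM in the WT PBS liver, with Kdr at 0.0700 TPM, against 7.97 TPM, and the Kupffer cell list, at 28.3 TPM, against 51.5 TPM. Within the Kupffer cell list Marco went the other way, at 13.55 TPM in the WT LPS liver, against 2.5 TPM in the WT PBS liver. The part of these cells in the values was not tested.

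In TG2-KO livers, which the listing did not use, the same 9 genes were higher with LPS than with PBS and the same 4 lower, where 31.3% of listed genes were higher and 92.1% kept the direction they had in WT livers. Cell markers moved with this contrast too. The neutrophil list summed to 135 TPM in the TG2-KO LPS liver, against 29.2 TPM in the TG2-KO PBS liver, the endothelial list, with 6 of 7 markers listed, to 30.9 TPM, against 58.4 TPM, and the macrophage list, with 6 of 9 listed, to 440.3 TPM, against 38.5 TPM. Of the macrophage sum with LPS 1 gene made up 411 TPM. Csf1r (2.54 TPM, against 5.58 TPM) and Lyz2 (21.5 TPM, against 28.0 TPM) were lower with LPS in TG2-KO livers. Adgre1 (1.49 TPM, against 1.24 TPM) and Ptprc (1.38 TPM, against 0.8 TPM) were higher. The part of these cell types in the TG2-KO values was not tested. Of the 13, 6 were at least 2-fold higher and 0 at least 2-fold lower, where 31.9% of the listed genes differed 2-fold. Marcksl1 had 61.8 TPM in the TG2-KO LPS liver, against 10.1 TPM in the TG2-KO PBS liver, and 72.1 TPM in the WT LPS liver, against 8.74 TPM in the WT PBS liver. Tmsb10 had 113 TPM in the TG2-KO LPS liver, against 36.1 TPM in the TG2-KO PBS liver. Marcks had 8.47 TPM in the TG2-KO LPS liver, against 2.59 TPM in the TG2-KO PBS liver. Msn and Tpm4 were the others past 2-fold with Actg1. Rdx had 26.2 TPM in the TG2-KO LPS liver, against 36.9 TPM in the TG2-KO PBS liver. Tgm2 itself stood at 15.5 TPM in the TG2-KO LPS liver, against 425 TPM in the WT LPS liver.

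Between genotypes, Actg1 was the one gene past 2-fold. It had 216 TPM in the TG2-KO PBS liver, against 63.7 TPM in the WT PBS liver, a ratio of 3.39, where 7.7% of listed genes differed 2-fold. Actb had 404 TPM in the TG2-KO PBS liver, against 240.4 TPM in the WT PBS liver, a ratio of 1.68. The neutrophil markers summed to 29.2 TPM in the TG2-KO PBS liver, against 1.73 TPM in the WT PBS liver, and their part was not tested. With LPS none of the 13 differed 2-fold between TG2-KO and WT livers, where 6.3% of listed genes did, and Actg1 had 494 TPM in the TG2-KO LPS liver, against 466 TPM in the WT LPS liver. Genotype and extraction date cannot be told apart here.

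With CTM, 4 of the 13 genes were higher and 9 lower in the WT LPS plus CTM liver than in the WT LPS liver, where 52.3% of listed genes were higher. None of the 13 differed 2-fold, where 1.59% of listed genes did. The neutrophil markers summed to 97.5 TPM in the LPS plus CTM liver, against 71.6 TPM in the LPS liver. The Kupffer cell markers summed to 43.4 TPM, against 28.3 TPM. Most of that difference was in Marco, at 26.1 TPM, against 13.55 TPM. Other Kupffer cell markers moved less, with Clec4f at 7.53 TPM, against 6.48 TPM. The part of these cells with CTM was not tested. Actb had 434 TPM in the LPS plus CTM liver, against 494 TPM in the LPS liver, and Actg1 had 486 TPM, against 466 TPM. The largest difference was in Marcksl1, at 48.9 TPM in the LPS plus CTM liver, against 72.1 TPM in the LPS liver.

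Depletion of liver macrophages left 4 of the 13 genes higher and 9 lower with LPS, where 44.8% of listed genes were higher. Among the 13, 1 was at least 2-fold higher and 1 at least 2-fold lower, where 8.83% of listed genes differed 2-fold. Marcksl1 had 20.3 TPM in the depleted LPS liver, against 57.6 TPM in the LPS liver without depletion. Actg1 had 205 TPM in the depleted liver, against 361 TPM without depletion, and Actb had 305 TPM, against 466 TPM. Kupffer cell markers moved with these decreases: the 5 of 6 with values summed to 11.6 TPM in the depleted liver, against 67.8 TPM without depletion, with Clec4f at 0.210 TPM, against 12.3 TPM, and none at 0. The wider macrophage list, 6 of 9 with values, summed to 559 TPM in the depleted liver, against 345 TPM without depletion, of which 1 gene made up 540.4 TPM and 291 TPM. Neutrophil markers, 5 of 8 with values, summed to 191 TPM in the depleted liver, against 108 TPM without depletion. Most of that sum was S100a8 (85.1 TPM, against 45.1 TPM) and S100a9 (95.0 TPM, against 45.05 TPM). Csf3r went the other way, at 2.87 TPM in the depleted liver, against 9.21 TPM. The part of these cells in the decreases was not tested.

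Tpm1 went the other way, with 82.7 TPM in the depleted LPS liver, against 13.5 TPM in the LPS liver without depletion, and it was the highest of the 7 livers by a wide margin. The next, the WT PBS liver, had 22.6 TPM. Some other genes stood high in the same library. Des, which encodes the intermediate filament protein desmin, had 24.5 TPM in the depleted liver, against 0.360 TPM without depletion. Slc25a4, a nucleotide carrier gene picked after its values were seen, had 28.4 TPM, against 2.37 TPM. The fibroblast or smooth muscle list, which holds Des and has 4 of 10 markers listed, summed to 38.7 TPM in the depleted liver, against 9.72 TPM without depletion. On that list Pdgfrb had 2.01 TPM, against 0.66 TPM, and the smooth muscle marker Tagln 3.36 TPM, against 2.52 TPM. The part of other cells in the Tpm1 value was not tested.

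**Figure D5:**
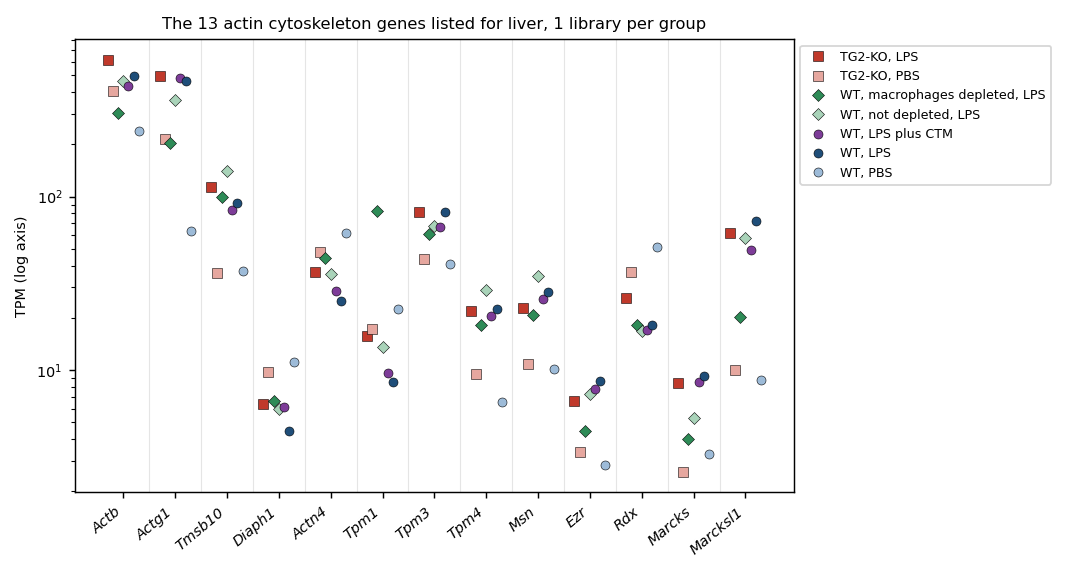
TPM (log axis) of the 13 actin cytoskeleton genes with values for liver, 1 library per group and so no error bars: TG2-KO with LPS and PBS (squares), WT with LPS with and without macrophage depletion (diamonds), and WT with LPS plus CTM, LPS and PBS (circles). Tpm1 at 82.7 TPM in the depleted liver stands above the other 6 livers, and Marcksl1 at 20.3 TPM there lies below the other LPS livers.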

How the data were processed

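RNA sequencing libraries were made with a TruSeq Stranded mRNA kit, per the labels' protocols. The deposited values are TPM per gene, which the authors made with Salmon on mm10 (GRCm38), per the submitters' processing notes. The version and annotation are not given in the sources used here. Whether Salmon's strand setting matched the kit is not given either. All 14 cell line and 7 liver libraries were used. From the deposited TPM, log2(TPM + 1) was fitted per experiment, with every group in the model and a mean-variance trend (limma 3.58.1, R 4.3.3). A gene was kept if its libraries averaged 1 TPM or more. P-values are two-sided and adjusted by Benjamini-Hochberg over all genes, 11115 at 12 h and 11030 at 24 h. The fit was tested on simulated data in which 200 genes changed between LPS and PBS in WT cells. A change of most genes, as seen with LPS, and the interaction were not simulated. Liver values have no test. The 43 genes and all lists were chosen with earlier results of these data known. Genes described per library passed the test with a log2 change of at least 0.5 and groups that do not overlap, up to 8 in each direction, plus Actb, Actg1, Srf, Cfl1, Pfn1 and Tmsb4x. Related genes were limited to the 4 largest changes per comparison that averaged 5 TPM or more. Other genes given with values were added after their values were seen. Shared sequence was counted as 31-base words between annotated transcripts of the reference (GENCODE M21). The columns of the 24 h LPS and LPS plus CTM libraries carry other numbers than the labels, so they are matched to their group and not to a replicate. Alternatives were median-of-ratios scaling, a replicate block, leaving out each library, a pseudocount of 0.1, and a filter at 5 TPM or none.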

Additional observations from a re-analysis of the deposited data

Results flagged for a closer look

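For 12 genes the LPS change at 12 h differed between Vim-KO and WT cells by the interaction test (limma, adjusted p below 0.05), where 20.6% of all genes passed. Differences are the change in Vim-KO cells minus that in WT cells on the log2 scale. The monomer actins differed by -0.79 (Actb) and -0.96 (Actg1). Among monomer-binding and turnover genes Tmsb10 differed by -1.19, Pfn1 by -0.4 and Coro1a by -0.35. Zyx differed by -1.3, Actn1 by -0.78 and Myl12a by -0.56. Of the membrane linkers Marcks differed by -3.02, Marcksl1 by -1.03 and Ezr by -0.93. Gsn, at 0.58, was the one positive difference. The 12 were of 3 kinds by level. Actb, Actg1, Pfn1 and Coro1a were higher in Vim-KO cells with PBS and did not pass between genotypes with LPS. Marcks, Actn1 and, with the opposite sign, Gsn did not pass between genotypes with PBS and did with LPS. Zyx, Tmsb10, Ezr, Myl12a and Marcksl1 passed with both treatments, in unlike directions. In Vim-KO cells Zyx was higher with both, and Tmsb10 and Ezr were lower with both. Myl12a and Marcksl1 were higher in Vim-KO cells with PBS and lower with LPS. After scaling Zyx did not pass between genotypes with LPS. The call for Pfn1 was lost with a replicate block (adjusted p = 0.0584), that for Gsn in 4 of the 8 fits that left out 1 library, and those for Pfn1 (adjusted p = 0.0834) and Actb (adjusted p = 0.0554) with no filter on low values. The value of Marcks rests on PBS libraries below 0.2 TPM and depends on the constant added before the logarithm.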

How the results depend on the processing

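Counts of genes past the threshold stayed within 1.5 times when the filter was dropped or set to 5 TPM, and when the pseudocount was 0.1. Under median-of-ratios scaling the count for LPS plus CTM against PBS was 17, against 26 as deposited, and the other counts stayed within 1.5 times. A similar count can hold other genes. Calls kept in direction under that scaling were 23 of 35 for LPS at 24 h and 10 of 14 for LPS plus CTM against LPS. For LPS plus CTM against PBS 12 of 26 were kept. At 12 h 25 of 29 were kept for LPS in Vim-KO and 30 of 34 in WT cells. Between genotypes 20 of 22 were kept with PBS and 16 of 18 with LPS, and for the interaction 12 of 12. When each library was left out in turn, the count ranged from 25 to 30 for LPS in Vim-KO cells and 26 to 35 in WT cells at 12 h. It ranged from 29 to 34 for LPS at 24 h, 7 to 15 for LPS plus CTM against LPS, 15 to 26 for LPS plus CTM against PBS, 12 to 20 for Vim-KO against WT with LPS, 12 to 23 with PBS and 9 to 16 for the interaction. Over the 341 changes of the 43 genes in all comparisons scaling turned the sign of 65. Of these, 21 had passed the test as deposited or belonged to Actb, Actg1, Srf, Cfl1, Pfn1 and Tmsb4x. For LPS at 24 h these were Actn4 (0.022), Actr2 (0.00024), Arpc2 (0.051), Cap1 (0.053), Capza1 (0.099) and Myh9 (0.053). For LPS plus CTM against PBS they were Actb (0.17), Actr2 (0.017), Arpc2 (0.027), Myl12b (0.00095) and Pfn1 (0.015). For LPS at 12 h they were Capg (0.092) and Pfn1 (0.19) in Vim-KO cells, and Actn4 (0.019), Arpc1b (0.090), Cap1 (0.11) and Tpm1 (0.19) in WT cells. For Vim-KO against WT with LPS they were Actb (-0.021), Actg1 (-0.0036) and Cfl1 (-0.0049), and for the interaction Tmsb4x (-0.062). Scaling multiplies all TPM of a library by 1 factor, and with the constant of 1 added genes of low TPM shift less. Leaving out 1 library turned 9 values, none of which had passed. Over these fits Actb ranged from -0.037 to 0.020 in LPS plus CTM against PBS, turning without the first PBS library. Srf ranged from -0.089 to 0.18 with LPS in Vim-KO cells, turning without the first Vim-KO PBS or first Vim-KO LPS library. For Vim-KO against WT with LPS, Actb ranged from -0.037 to 0.14 and Actg1 from -0.082 to 0.22, both turning without the first Vim-KO LPS or first WT LPS library. The interaction of Tmsb4x ranged from -0.091 to 0.22, turning without the second Vim-KO LPS or second WT LPS library. The cause of these changes was not tested. Same-numbered libraries did not deviate together (correlations of -0.22 to 0.10), so the numbers are not taken as pairs. With a replicate block the counts were 29 for LPS in Vim-KO and 32 in WT cells at 12 h, 19 for Vim-KO against WT with PBS, 14 with LPS, 11 for the interaction and 11 for LPS plus CTM against LPS. With the numbers of the WT LPS libraries crossed, a pairing chosen after seeing the data, these counts at 12 h were 31, 34, 21, 18 and 14. In liver, a pseudocount of 0.1 put 13 genes past 2-fold between WT LPS and WT PBS, against 12. TPM keep no depth, so no counting error could be given.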
